A study of Mus musculus with 2 samples.

Results

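The variable (V) genes of the T cell receptor were followed through 2 single-cell RNA-seq libraries of mouse meninges. The members were all genes of the count tables whose symbol begins with Trav, Trbv, Trdv, Trgv or Tcrg-V followed by a digit, which gave 176 of 32285 genes: 128 alpha, 35 beta, 7 gamma and 6 delta V genes. The meninges came from male mice, C57BL/6 in the labels and C57BL/6J in the study's methods, given as 10 weeks of age in one label and as 10 to 12 weeks in another. One library (Sham) came from mice that had the sham procedure, and the other (TBI) from mice with a mild closed-skull traumatic brain injury, both taken 1 week later. Each library held the whole dorsal meninges of 5 mice pooled, sorted for live single cells, and the tissue did not include the point of impact. Mice within a pool cannot be separated, so each group was 1 sample, no test between Sham and TBI was possible, and every interval given is a 95% exact binomial (Clopper-Pearson) interval that covers counting error only.

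A T cell builds its receptor by joining 1 V gene to a joining segment, with a diversity segment in beta and delta chains, upstream of a constant gene. Alpha and beta chains form the receptor of conventional CD4 and CD8 T cells, and gamma and delta chains form that of gamma-delta T cells, which are abundant at barrier tissues and are a known early source of interleukin-17. V genes with dv in their symbol lie in the alpha locus and can be joined in either alpha or delta chains, because the delta genes lie within the alpha locus. Group 2 innate lymphoid cells (ILC2) and natural killer (NK) cells are lymphocytes without a T cell receptor on their surface. A count per V gene does not say whether the transcript came from a joined or an unjoined gene.

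The V genes that carried most of the results are shown as the end of their coding part, the side that is joined, with positions in GRCm38 and gene models from GENCODE vM21. The first set holds the delta genes most frequent in gamma-delta T cells, ILC2 and NK cells, and the gamma genes most frequent in gamma-delta T cells. The delta genes are Trdv4 (chr14:54075396-54075515, plus strand) and Trdv2-2 (chr14:53961483-53961602, plus strand). The gamma genes are Tcrg-V6 (chr13:19190810-19190929, plus strand) and Trgv2 (chr13:19336573-19336692, minus strand). Capitals mark the last in-frame cysteine codon that directly follows a tyrosine or phenylalanine codon.
Trdv4: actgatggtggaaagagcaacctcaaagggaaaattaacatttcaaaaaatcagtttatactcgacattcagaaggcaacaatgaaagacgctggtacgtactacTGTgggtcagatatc
Trdv2-2: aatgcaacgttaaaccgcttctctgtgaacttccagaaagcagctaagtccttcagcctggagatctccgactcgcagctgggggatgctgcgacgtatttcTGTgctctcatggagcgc
Tcrg-V6: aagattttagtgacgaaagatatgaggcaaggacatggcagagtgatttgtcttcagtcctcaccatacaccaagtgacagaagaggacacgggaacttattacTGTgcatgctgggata
Trgv2: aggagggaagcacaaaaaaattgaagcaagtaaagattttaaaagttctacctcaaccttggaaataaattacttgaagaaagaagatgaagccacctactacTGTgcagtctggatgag
Compared base by base from the end without gaps, Trdv4 and Trdv2-2 matched at 32.2% of the last 270 coding bases. Tcrg-V6 and Trgv2 also matched at 32.2%. The bases after the cysteine codon number 12 and 15 in the first pair, and 13 and 14 in the second. These pairs are thus out of register, and the values do not measure aligned similarity. Trdv2-2 was 97.8% identical to Trdv2-1, which had no UMI in any cell, so the 2 genes are not fully separable by counting. A UMI, or unique molecular identifier, marks 1 captured transcript.

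The second set holds the 3 Trbv13 genes, in which capitals mark the bases that differ from Trbv13-2, the most frequent beta V gene. All lie on the plus strand, Trbv13-2 at chr6:41121713-41121832, Trbv13-3 at chr6:41130466-41130585 and Trbv13-1 at chr6:41116349-41116468.
Trbv13-2: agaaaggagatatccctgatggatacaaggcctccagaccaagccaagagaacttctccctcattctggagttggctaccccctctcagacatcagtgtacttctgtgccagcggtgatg
Trbv13-3: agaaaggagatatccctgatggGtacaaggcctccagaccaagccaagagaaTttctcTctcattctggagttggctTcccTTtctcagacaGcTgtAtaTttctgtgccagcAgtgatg
Trbv13-1: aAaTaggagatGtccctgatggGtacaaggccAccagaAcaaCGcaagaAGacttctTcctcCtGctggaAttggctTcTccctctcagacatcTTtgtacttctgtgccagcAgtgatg
Within these 120 bases Trbv13-3 differed from Trbv13-2 at 11 bases and Trbv13-1 at 19. Over the last 270 coding bases Trbv13-2 shared 91.1% with Trbv13-3, with a longest common run of 50 bases, and 87.8% with Trbv13-1. Its neighbour Trbv12-2 (chr6:41119245-41119364, plus strand), with capitals again on the cysteine codon, matched at 26.7% in the same comparison without gaps. Trbv13-2 has 13 bases after the cysteine codon and Trbv12-2 has 12, so this pair is also out of register. Their longest common run was 18 bases.
Trbv12-2: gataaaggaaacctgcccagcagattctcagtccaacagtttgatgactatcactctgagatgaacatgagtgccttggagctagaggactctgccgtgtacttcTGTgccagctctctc

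After filtering, Sham held 2043 cells with 7866611 UMIs (median 2764 per cell) and TBI held 3773 cells with 13940740 UMIs (median 2663). The libraries shared 20 cell barcodes, of which 14 in Sham and 20 in TBI passed the filter, and 4 in each lay among the gated lymphocytes. Cells were assigned by UMIs of genes that are not V genes. T cells needed a UMI of Cd3d, Cd3e or Cd3g, the signalling subunits of the receptor, and at most 2 UMIs summed over 12 genes of other cell types. Among them gamma-delta cells had Trdc, the delta constant gene, and no Ncr1, Cd4 or Cd8b1; CD8 cells had Cd8a or Cd8b1 and CD4 cells had Cd4, with neither Trdc nor the other coreceptor. The remaining T cells are called other CD3 cells. ILC2 had Gata3, the type 2 master transcription factor, together with another ILC2 gene and no CD3, coreceptor or Ncr1 UMI, and NK cells had Ncr1 or Klrb1c and no CD3 UMI.

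These gates held 39 CD4 cells in Sham and 38 in TBI, 33 and 54 CD8 cells, 18 and 36 gamma-delta cells, 86 and 145 other CD3 cells, 66 and 87 ILC2, and 85 and 76 NK cells. Gated T cells made up 8.61% of Sham cells (7.43 to 9.92) and 7.24% of TBI cells (6.43 to 8.11). One marker gene per class is given here, picked from longer lists, so these shares are examples and do not establish the classes. Cd40lg, a helper T cell ligand, was found in 41 of 77 CD4 cells, and Nkg7, of cytotoxic granules, in 75 of 87 CD8 cells. Cd163l1, a scavenger receptor of interleukin-17-type gamma-delta cells, was found in 36 of 54 gamma-delta cells. The other marker genes of this class outside the gate were found in fewer of its cells, and Il17a had no UMI in Sham. Il1rl1, the interleukin-33 receptor, which is one of several alternatives within the ILC2 gate, was found in 113 of 153 ILC2. Prf1, or perforin, was found in 109 of 161 NK cells. Of 17 genes of B, myeloid, dendritic and stromal cells, the TBI gamma-delta gate held 2503 UMIs, and 2462 of these were in 1 cell.

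V gene UMIs were found for 101 of the 176 members, 68 alpha, 22 beta, 7 gamma and 4 delta, and the other 75 had none. Sham held 77 and TBI 94 of these genes, with 70 in both. The 7 found only in Sham and the 24 found only in TBI were each in at most 6 cells. TBI also held more gated T cells, 273 against 176, and more UMIs. The matching counts over all genes are not given, so these numbers are not read as a difference between the libraries. The members summed to 5725 UMIs in 595 cells, of which 3174 were beta, 1033 delta, 874 alpha and 644 gamma. Gated T cells held 89.5% of these UMIs and 67.1% of the positive cells. Only 31 members were found in 10 or more cells, while 50 were found in 2 to 9 cells and 20 in a single cell. The 84 joining and diversity genes in the tables, the other segments of a receptor transcript, had 0 UMIs.

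Detection differed with the annotation of the members. Of the 142 V genes annotated as genes 96 were found, against 5 of 34 pseudogenes, and those 5 summed to 22 UMIs. The alpha V genes lie in copies on chromosome 14, from 52427928 to 53977678, and many have near-identical partners. For each member the transcript was split into stretches of 98 bases, the length of the cDNA read, and each stretch was looked up in the transcripts of all other genes. In 40 members, 39 of them alpha, no stretch was free of another gene, and 2 of these were found, each in 1 cell. Of the 136 members with at least 1 stretch of their own 99 were found (72.8%). Near-identical copies can share or lose reads, so counts of single alpha genes are uncertain: Trav6-4, for example, was 97.4% identical to Trav6d-4 over 270 bases. The beta genes lie on chromosome 6 (40891229 to 41558452) and the gamma genes on chromosome 13 (19178024 to 19340454).

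Alpha and beta V genes were found in most CD4 and CD8 cells, and gamma and delta V genes in most gamma-delta cells. By number of cells, delta V genes were in 39 gamma-delta, 67 NK, 28 other CD3 and 25 ILC2 cells. Gamma V genes were in 52 gamma-delta and 59 other CD3 cells. Beta V genes were found in 89.7% of Sham CD4 cells (75.8 to 97.1) and 92.1% of TBI CD4 cells (78.6 to 98.3), and in 90.9% (75.7 to 98.1) and 98.1% (90.1 to 100) of CD8 cells. Alpha V genes were found in 64.1% and 60.5% of CD4 cells and in 66.7% and 77.8% of CD8 cells. Gamma V genes were found in 94.4% (72.7 to 99.9) and 97.2% (85.5 to 99.9) of gamma-delta cells, and delta V genes in 77.8% (52.4 to 93.6) and 69.4% (51.9 to 83.7). No CD8 cell had a delta V gene UMI. Taking 3 counts of the total as the limit of a count of 0, 87 cells allow up to 3.45% of cells with a UMI. The only delta V gene UMI in a CD4 cell was a single UMI of Trdv1 in TBI. The gamma-delta gate required a Trdc UMI, and the CD4 and CD8 gates excluded it. The delta shares of these 3 classes are thus set in part by the gates.

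**Figure D1:**
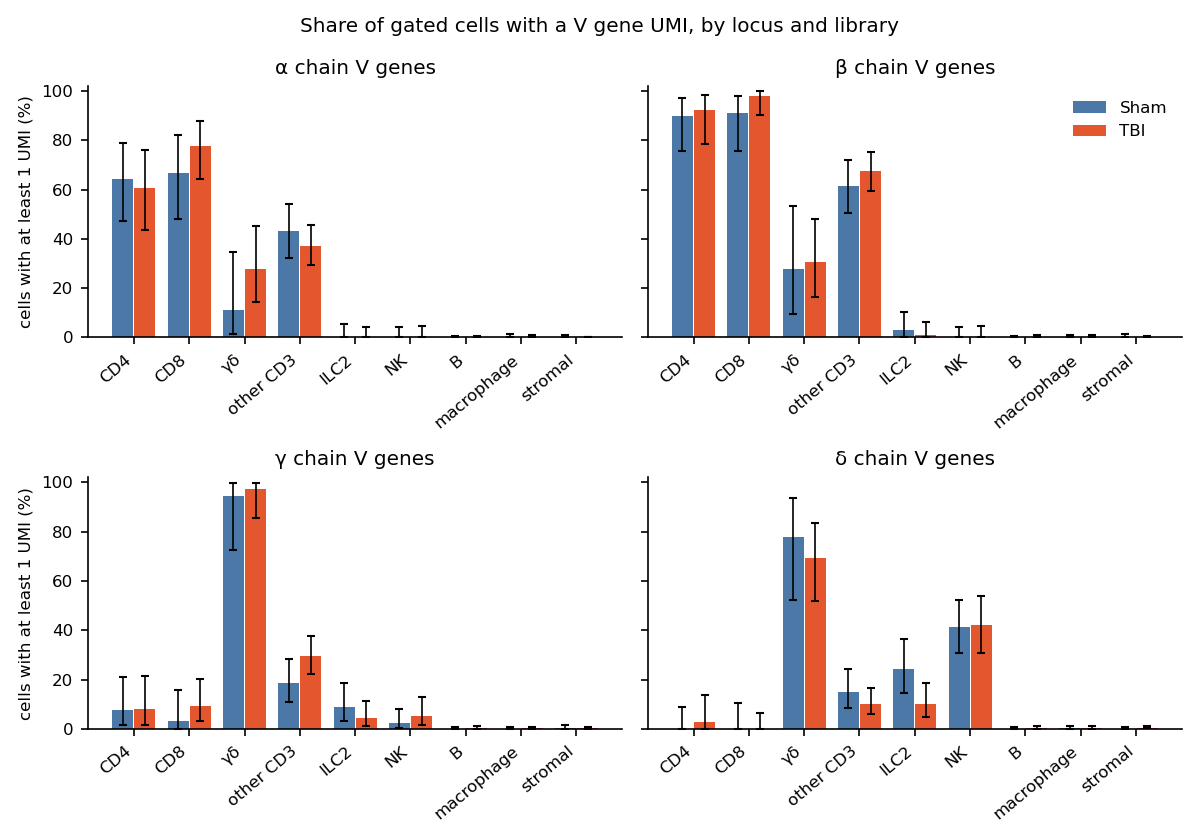
Percent of cells with at least 1 UMI of an alpha, beta, gamma or delta V gene (vertical axis) in each gated class and library, with 95% exact binomial intervals that cover counting error only. Beta V genes reached 89.7% to 98.1% of CD4 and CD8 cells, gamma V genes 94.4% and 97.2% of gamma-delta cells, and delta V genes 41.2% and 42.1% of NK cells.

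Cells that should lack the receptor were taken as the background. B cells had at least 2 UMIs of Cd79a or of Cd79b. Macrophages had at least 2 over Csf1r, C1qa and C1qb, and stromal cells at least 2 over Col1a1, Dcn, Cldn5, Flt1 and Rgs5. Each of these classes also required no CD3 UMI. Cells of these types with a CD3 UMI were thus left out, and the shares are low in part by the gate. Any V gene UMI was found in 0 of 475 Sham B cells and 3 of 488 TBI B cells (0.615%), in 0.500% and 1.20% of macrophages, and in 0.525% and 0.816% of stromal cells. Median depths in these B, macrophage and stromal cells were 2061 to 3947 UMIs per cell, against 2905 to 5179 in the CD4, CD8 and gamma-delta cells. Cells that fell in no gate stood at 4.35% and 5.31%, with median depths of 1682 and 2019. The other CD3 cells were positive in 80.2% (70.2 to 88.0) and 80.7% (73.3 to 86.8). This class held 18 Sham and 28 TBI cells with a single CD3 UMI, of which 9 and 5 had a V gene UMI, and its most frequent V gene was Trbv13-2, in 48 of 231 cells. Between Sham and TBI the intervals overlapped in each T cell class, which does not show that the shares are equal.

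Trbv13-2 was the most frequent beta V gene, found in 82 of the 320 gated T cells with a beta V UMI. In Sham it was in 28 of 123 such cells (22.8%, 15.7 to 31.2) and in TBI in 54 of 197 (27.4%, 21.3 to 34.2). Trbv3 followed with 35 cells, 19 in Sham (15.4%) and 16 in TBI (8.12%). Trbv12-2 was in 30, Trbv1 in 27, Trbv29 in 26, Trbv19 in 22, and Trbv13-1, Trbv13-3 and Trbv16 in 21 each. Trbv20 was in 17, Trbv12-1 and Trbv5 in 16, Trbv14 in 15, Trbv2 in 14, Trbv31 in 13, Trbv26 in 12, and Trbv15 and Trbv4 in 10. For all 22 beta V genes found, the Sham and TBI intervals of this share overlapped. Most of these genes were in few cells, so overlap does not show that their use was unchanged. The matching count over all genes is not given. By ratio the widest contrasts among beta genes found in 10 or more T cells were Trbv2, in 2 cells of Sham (1.63%) and 12 of TBI (6.09%), and Trbv4, in 7 (5.69%) and 3 (1.52%), both chosen after their values were seen.

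**Figure D2:**
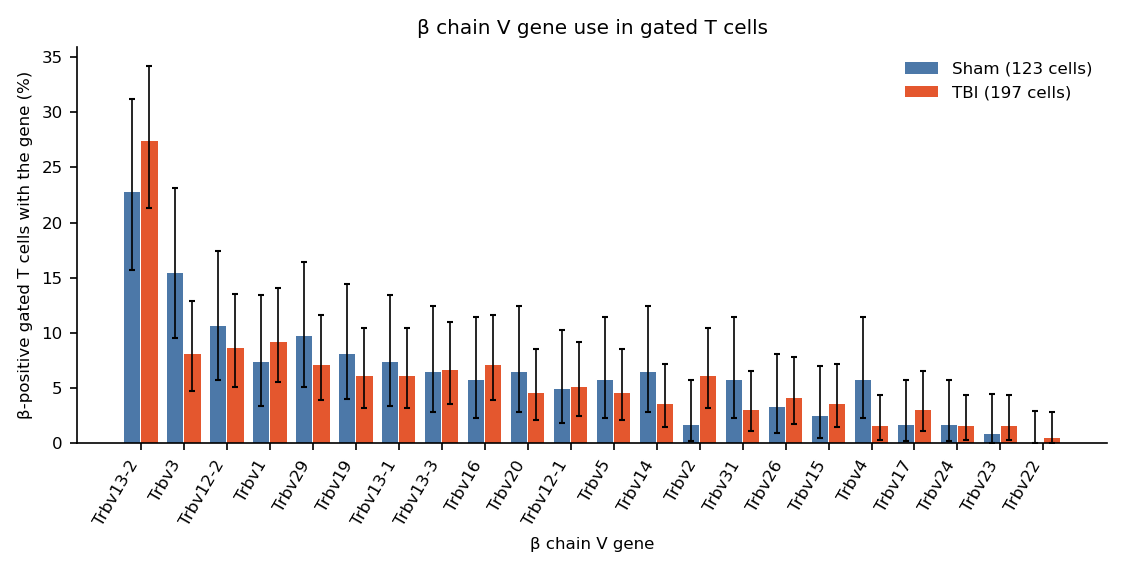
Percent of gated T cells with any beta V UMI (vertical axis) that held each beta V gene (horizontal axis), in Sham (123 cells) and TBI (197 cells), with 95% exact binomial intervals. Trbv13-2 stood at 22.8% and 27.4%. The intervals of the 2 libraries overlapped for all 22 genes, which does not show equal use.

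Trbv13-2 and Trbv3 were the 2 most frequent beta genes in CD4 cells and in CD8 cells. In the 70 CD4 cells with a beta V UMI, Trbv13-2 was found in 17, Trbv3 in 13, Trbv19 in 9, and Trbv29 and Trbv12-2 in 7 each. In the 83 such CD8 cells, Trbv13-2 and Trbv3 were each found in 14, Trbv12-1 in 10, and Trbv29 and Trbv12-2 in 9 each. Positive cells held between 1 and 91 UMIs of Trbv3, with a median of 10.5 over both libraries, and up to 20 UMIs of Trbv13-2, with a median of 3. These UMIs per cell were not scaled to transcript length and are not compared between genes.

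**Figure D3:**
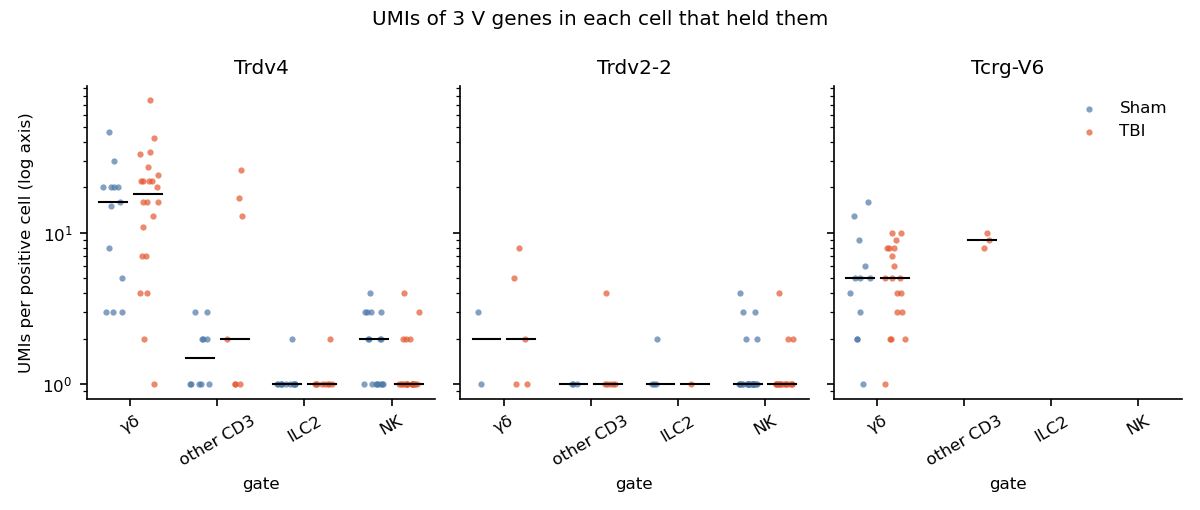
UMIs of Trdv4, Trdv2-2 and Tcrg-V6 in each positive cell (vertical log axis), by gate (horizontal axis) and library, with each point a cell and each black line a median. In gamma-delta cells the median of Trdv4 was 16 in Sham and 18 in TBI, and no NK cell held more than 4 and no ILC2 more than 2.

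Most T cells showed 1 leading beta gene. Of 128 CD4 and CD8 cells with at least 3 beta V UMIs, 85 had all of them on 1 gene and 95 had 90% or more. The other 43 held at least 2 beta V genes, and none of the 43 was among the predicted doublets. Of all gated T cells only 0 in Sham and 3 in TBI were predicted doublets. Whether 2 T cells shared a barcode was not tested. The commonest pair was Trbv12-2 with Trbv13-2, in 16 gated T cells, 7 in Sham and 9 in TBI, out of 30 cells with Trbv12-2 and 82 with Trbv13-2. These genes are neighbours with 2031 bases between them. Trbv12-2 was the lower of the pair in 14 of the 16 cells and had 1 UMI in 12, and the median was 1 UMI for Trbv12-2 and 6 for Trbv13-2. Trbv13-2 and Trbv13-3, with 8314 bases between them, shared 10 cells, 3 in Sham and 7 in TBI. Of the 74 beta pairs seen in a cell, 56 were seen in 1 cell only.

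Alpha V genes were spread more thinly than beta. The most frequent, Trav12-2, was in 18 of the 215 gated T cells with an alpha V UMI (8 Sham, 10 TBI), Trav3-3 in 14, and Trav6-5 and Trav6-7-dv9 in 11 each. Trav13-1 was in 8 and Trav5-4 in 7. CD4 cells held 35 different alpha V genes in 48 positive cells and CD8 cells 34 in 64. Trav6-4 was in 6 TBI CD8 cells and no Sham CD8 cell, and 5 of those 6 also held Trbv3. Over all gated T cells Trav6-4 and Trbv3 were together in 7 of the 9 Trav6-4 cells, 1 in Sham and 6 in TBI. With all mice of a group in 1 pool, these cells cannot be assigned to a mouse. Trav6-4 was outside the rule for named genes and was chosen after its values were seen.

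**Figure D4:**
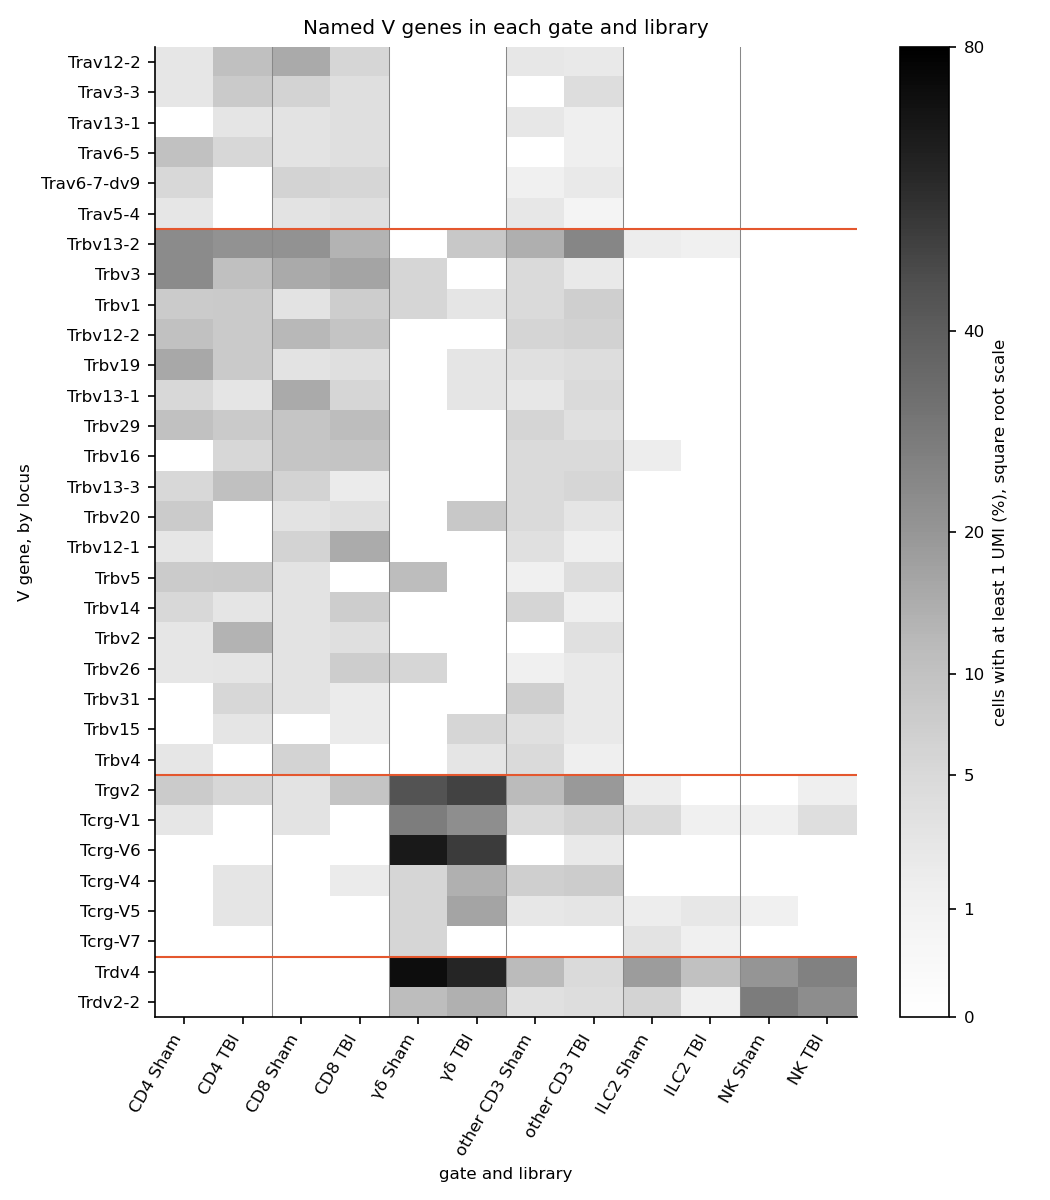
Percent of cells in each gate with at least 1 UMI of each named V gene (grey level, square root scale), in Sham and TBI. Tcrg-V6 and Trdv4 were concentrated in gamma-delta cells, and the Trbv genes in CD4, CD8 and other CD3 cells. Trdv4 was also found in NK cells, ILC2 and other CD3 cells. Trdv2-2 was in 41 NK, 9 other CD3, 7 gamma-delta and 5 ILC2 cells over both libraries.

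In gamma-delta cells a single combination prevailed. Trdv4 was in 35 of 54, 13 of 18 in Sham and 22 of 36 in TBI, with 16 and 18 UMIs per positive cell at the median. Tcrg-V6 was in 31, 12 of 18 in Sham and 19 of 36 in TBI, with a median of 5 UMIs. Of the 31 Tcrg-V6 cells 30 also held Trdv4, 12 in Sham and 18 in TBI. The receptor made of these chains is known in mice as that of interleukin-17-producing cells of several tissues. Outside the gate Tcrg-V6 was in 0 of 77 CD4, 0 of 87 CD8, 0 of 153 ILC2 and 0 of 161 NK cells, which by the same limit allows shares of cells with a UMI of up to 3.90%, 3.45%, 1.96% and 1.86%. It was in 3 of 231 other CD3 cells, all 3 of which held Trdv4. It was also in 1 of 963 B cells, 1 of 1233 macrophages, 1 of 1606 stromal cells and 2 cells in no gate, all in TBI. The CD4 and CD8 gates excluded any cell with a Trdc UMI, so the counts of Tcrg-V6 there are set in part by the gates.

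Genes that the gate did not use were found in more of the Tcrg-V6 cells than of the other 23 gamma-delta cells. Cd163l1 was found in 31 of 31 against 5 of 23 (88.8 to 100 against 7.46 to 43.7%). Blk, a kinase of this lineage, was found in 25 against 5 (62.5 to 92.5 against 7.46 to 43.7%). Maf was found in 22 against 3 and Sox13 in 18 against 2, both transcription factors of interleukin-17-type gamma-delta cells. Il23r, the interleukin-23 receptor, was found in 16 against 4 (33.1 to 69.8 against 4.95 to 38.8%). The last pair of intervals overlapped. Il17a itself was in 2 cells, both Tcrg-V6 cells of TBI, with 29 UMIs. In each library the Tcrg-V6 cells had the higher share of Cd163l1, Blk, Maf, Sox13 and Il23r. Median depth was 3733 UMIs per cell with and 2527 without Tcrg-V6 in Sham, and 3320 and 3673 in TBI, so the deeper cells were the Tcrg-V6 cells in Sham and the others in TBI.

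**Figure D5:**
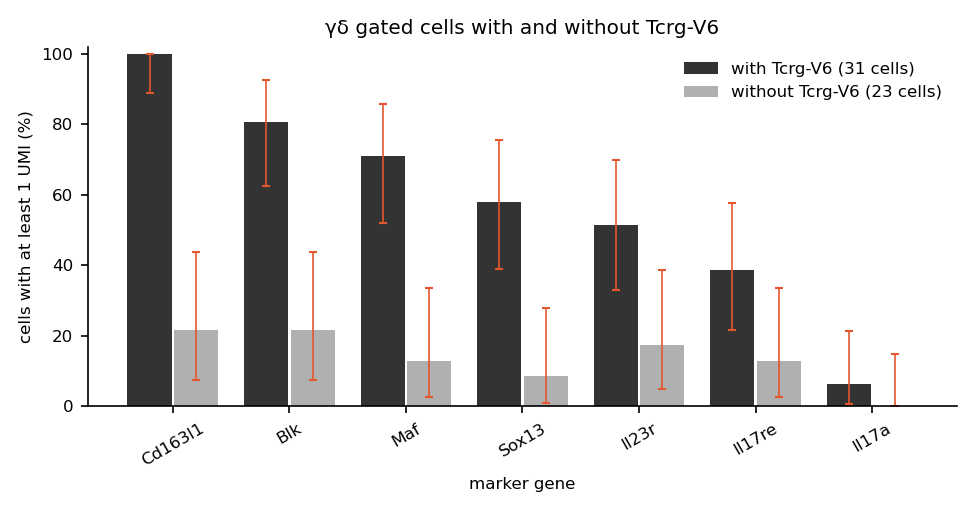
Percent of gamma-delta gated cells with at least 1 UMI of each marker (vertical axis), in 31 cells with and 23 cells without a Tcrg-V6 UMI, with 95% exact binomial intervals over cells of both libraries. Cd163l1 was in all 31 cells with Tcrg-V6 and in 5 of 23 without.

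The other gamma genes were less selective. Trgv2 was in 26 gamma-delta cells, 8 in Sham and 18 in TBI, but also in 5 CD4, 6 CD8 and 38 other CD3 cells. Tcrg-V1 was in 13 gamma-delta and 13 other CD3 cells, Tcrg-V5 in 7 and 6, and Tcrg-V4 in 6 and 17. Tcrg-V7 was in 6 cells in all, 3 of them ILC2, with 1 UMI each. Trgv2 and Tcrg-V1 lie next to each other with 2821 bases between them and shared 14 gated T cells, as many as Trgv2 shared with Tcrg-V6, which lies at the other side of the locus. Counting dv alpha genes as delta, 15 of 18 Sham and 34 of 36 TBI gamma-delta cells held both chains. All 12 gamma-delta cells with an alpha V gene held one with dv in its symbol, and an alpha V gene without dv was found in 0 of 18 and 1 of 36. Beta V genes were found in 27.8% and 30.6% of gamma-delta cells, with 11 UMIs in 5 Sham cells and 61 UMIs in 11 TBI cells.

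NK cells and ILC2, which have no CD3 UMI by their gates, held delta V genes at low counts. Delta V genes were found in 35 of 85 Sham NK cells (41.2%, 30.6 to 52.4) and 32 of 76 TBI NK cells (42.1%, 30.9 to 54.0), and in 16 of 66 Sham ILC2 (24.2%, 14.5 to 36.4) and 9 of 87 TBI ILC2 (10.3%, 4.84 to 18.7). B cells, macrophages and stromal cells stood at 0 to 0.490%. With each cell thinned to 1000 UMIs the shares were 19.0% and 16.9% in NK cells (79 and 71 cells deep enough) and 7.14% and 4.05% in ILC2 (56 and 74). The intervals of Sham and TBI overlapped in ILC2 as in NK cells.

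In NK cells Trdv2-2 and Trdv4 were about equally frequent. Trdv2-2 was in 24 of 85 Sham (28.2%) and 17 of 76 TBI NK cells (22.4%), and Trdv4 in 17 (20.0%) and 20 (26.3%), each with at most 4 UMIs in a cell, and 12 cells held both. In ILC2 Trdv4 led, in 12 of 66 Sham cells (18.2%) and 9 of 87 TBI cells (10.3%), with 1 or 2 UMIs each, and Trdv2-2 was in 4 and 1. Trdv4 was in 0 of 77 CD4, 0 of 87 CD8 and 0 of 963 B cells, and in 5 of 1233 macrophages (0.406%) and 3 of 1606 stromal cells (0.187%). The CD4 and CD8 gates excluded Trdc, so their counts of Trdv4 are set in part by the gates. Among the 37 NK cells with Trdv4, Trdc was in 4, and among the 124 without it in 21. The direction for Trdc differed between libraries, with 0 of 17 against 14 of 68 in Sham and 4 of 20 against 7 of 56 in TBI. Ncr1, the NK receptor NKp46, was in 33 of the 37 and 110 of the 124, and since the gate required Ncr1 or Klrb1c, high shares on both sides are set in part by the gate. Trdc was in 0 of the 21 ILC2 with Trdv4 and in 1 of the 132 without it, and Il1rl1 in 17 of the 21 and in 96 of the 132. Predicted doublets among the NK cells and ILC2 with a Trdv4 or Trdv2-2 UMI numbered 0. Of all NK cells only 0 in Sham and 2 in TBI were predicted doublets, and of all ILC2 2 and 1. Whether 2 cells shared a barcode was not tested. Cells with either gene had a median depth of 3300 UMIs against 2983 without in NK cells, and of 3869 against 3151 in ILC2. The direction in ILC2 differed between libraries, with 4342 against 3300 in Sham and 2517 against 3077 in TBI. The part of depth beyond the thinned shares was not tested.

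The ratio of V gene to constant gene UMIs, which takes the same genes in each class, differed between classes. For beta it was 6.53 in Sham and 4.22 in TBI CD4 cells, from 490 and 266 V UMIs and 75 and 63 UMIs of Trbc1 and Trbc2, and 3.92 and 5.53 in CD8 cells. In NK cells it was 0, with 0 beta V UMIs in either library against 80 and 42 of the beta constant genes, which were found in 45.9% and 36.8% of NK cells. In ILC2 it was 0.0469 and 0.0172, from 3 and 1 V UMIs and 64 and 58 constant UMIs. The gamma ratio was 2.81 and 1.75 in gamma-delta cells, but 0.0680 and 0.0357 in ILC2, where 7 and 4 gamma V UMIs stood beside 103 and 112 UMIs of Tcrg-C1 to Tcrg-C4. The delta ratio was 4.18 and 3.76 in gamma-delta cells and 3.47 and 3.64 in NK cells, and ILC2 held 18 and 11 delta V UMIs beside 2 and 0 of Trdc. The gamma-delta gate required a Trdc UMI, so Trdc was in 100% of its cells, against 16.5% and 14.5% of NK cells. The delta ratio of gamma-delta cells is thus set in part by the gate and is not compared with the other classes. The sums were not scaled to length. The labels name a 3′ kit, and the position of reads within a transcript is not in the count tables, so the part of read position in these ratios was not tested.

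Summed over gated T cells (725755 UMIs in Sham, 1096242 in TBI), V genes as a whole stood at 2850 and 2790 counts per 1000000 UMIs (CPM), a log2 ratio of TBI to Sham of -0.03 (-0.11 to 0.05). Alpha stood at -0.11 (-0.31 to 0.10). Gamma was higher in TBI by 0.57 (0.30 to 0.84) and delta by 0.53 (0.31 to 0.75) on the log2 scale. These intervals take each UMI as independent, although 1 cell can hold many (up to 75 of Trdv4), so they are too narrow. Gamma V genes were found in 21.0% of Sham and 31.5% of TBI gated T cells, and delta V genes in 15.3% and 15.0%. Beside this, the TBI library held 36 gamma-delta cells among 273 gated T cells and Sham 18 among 176. Gamma V UMIs numbered 104 in Sham and 198 in TBI in gamma-delta cells, and 47 and 147 in other CD3 cells. In other CD3 cells gamma V genes were found in 18.6% and 29.7%. Delta V UMIs numbered 213 and 459 in gamma-delta cells, and 34 and 78 in other CD3 cells. The part of each class in the gamma and delta levels was not tested. Beta stood at -0.26 (-0.36 to -0.15), but at 0.13 when each cell counted equally as counts per 10000. Of the constant genes, Trdc stood at 0.66 (0.21 to 1.14), Tcrg-C1 at 1.03 (0.46 to 1.67), Tcrg-C2 at 0.42 (-0.35 to 1.27) and Tcrg-C4 at 0.60 (-0.00 to 1.26), and Tcrg-C3 had 1 UMI. Trac stood at -0.25 (-0.55 to 0.05), Trbc1 at -0.48 (-0.87 to -0.09) and Trbc2 at -0.14 (-0.40 to 0.12). With 1 pool per group, none of these ratios has a replicate check.

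For single members, 58 had at least 10 UMIs in gated T cells, and 11 of these were at least 2-fold higher and 14 at least 2-fold lower in TBI. Of all 9508 genes with at least 10 UMIs, 5.19% were 2-fold higher and 3.28% 2-fold lower, and of the 9197 within the range of UMIs of the members, 5.34% and 3.39%. The median log2 ratio was 0.01 for the 58 members, also with the 4 that were at 0 in Sham put at their bound of 3 counts over the group, and 0.01 for all 9508 genes. At the median 25.2% of a member's UMIs were in 1 cell, and 8 members had over 50% in 1 cell. The median member had 28 UMIs. The matching values over all genes are not given, so this is not read as a trait of V genes. The 25 members past 2-fold were found in a median of 7 T cells, against 15 for the other 33, and only 6 were found in 10 or more T cells. How far single cells set these folds was not tested.

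Among the frequent members, Trbv3 had 287 UMIs in Sham and 208 in TBI, a log2 ratio of -1.06 (-1.32 to -0.80). Of these Trbv3 UMIs 91 were in 1 cell, and the intervals here again take each UMI as independent. Trdv4 had 226 and 501 (0.55, 0.32 to 0.79), Trgv2 55 and 161 (0.95, 0.50 to 1.42) and Tcrg-V6 71 and 129 (0.26, -0.16 to 0.71). Trbv13-2, with 159 and 260, was close to even (0.11, -0.18 to 0.41). Trbv2 had 3 and 33 UMIs (2.66, 1.19 to 5.21), Trbv4 35 and 16 (-1.70, -2.68 to -0.83) and Trbv20 35 and 24 (-1.13, -1.95 to -0.35). Trdv2-2 had 7 and 26 (1.23, 0.06 to 2.75).

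The genes that carry the receptor's signal were set beside the V genes. The gate required Cd3d, Cd3e or Cd3g, so the shares of these 3 genes are fixed in part by it in both libraries. In gated T cells Cd3e was in 81.2% of Sham and 85.3% of TBI cells, Cd3g in 84.1% and 89.0%, Cd3d in 80.1% and 83.9%, Cd247, the zeta chain, in 47.2% and 50.5%, and the kinases Lck and Zap70 in 75.6% and 68.9% and in 51.7% and 50.2%. None of these 6 genes or the adaptor Lat was 2-fold different; Lck had a log2 ratio of -0.23 (-0.40 to -0.05). Rag1 and Rag2, which join V genes, and Ptcra, the surrogate alpha chain of immature T cells, had 0 UMIs in gated T cells, and Dntt, which adds bases at the joins, had 1.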

How the data were processed

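Live cells of the dorsal meninges were captured in droplets and sequenced as 1 library per group. The authors deposited raw UMI counts per gene and barcode, aligned to mm10; the labels name a 3′ kit with a cDNA read of 98 bases, the submitters' processing notes list Cell Ranger 2.1.1, Seurat 3.9.9 and DESeq2 1.30.0, and the matrix header names Cell Ranger 3.1.0. The deposited barcodes numbered 2699 (9527334 UMIs) in Sham and 4349 (15011079 UMIs) in TBI. Cells with 150 to 5000 genes, at most 20% mitochondrial and at most 5% hemoglobin UMIs were kept and sorted into classes by UMI gates on marker genes, with no V gene used. Doublets were kept in the main counts; Scrublet's automatic threshold marked 0.0979% and 0.106% of cells, so for one alternative the 33 and 114 highest-scoring cells were removed. Shares have exact binomial intervals. Levels are sums over gated T cells as log2 ratios of CPM (counts per 1000000 UMIs) with 0.5 UMI added, and intervals come from the binomial split of the 2 counts. With 1 library per group no test was run, and the study's cell-level tests were not used, since cells are not replicates. Named V genes were found in at least 10 cells or were among the 5 most frequent of the CD4, CD8, gamma-delta or ILC2 gate. The constant genes and a fixed pathway list are also named, and exceptions are marked. 1 gene of the marker lists is not reported here. The members and lists were chosen with earlier results of these data known. The level computation was tested on simulated data. The simulation drew the counts of each gene as independent UMIs, without their grouping in single cells. It thus does not test the intervals where 1 cell holds many UMIs of a gene. Python 3.11.15, numpy 2.4.6, pandas 2.3.3, scipy 1.17.1, scanpy 1.11.5 and matplotlib 3.10.9 were used, with gene models from GENCODE vM21. Alternatives were another gene limit, all barcodes, doublets removed, stricter and looser gates, gates inside clusters, thinning, 2 V gene UMIs, shared barcodes left out and other scalings.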

Additional observations from a re-analysis of the deposited data

How the results depend on the processing

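Of the values recomputed for the main results 299 stayed within their interval or within 1.5 times the main count, 42 moved further, and 1, the beta level, reversed: its log2 ratio went from -0.26 to 0.13 as a mean over cells of counts per 10000. In that setting the ratio of all V genes went from -0.03 to 0.23 and that of alpha V genes from -0.11 to 0.01, main values whose intervals include 0. Requiring 2 CD3 UMIs put the share of cells with a V gene UMI at 100% in Sham CD4 cells and at 88.2% and 95.7% in Sham and TBI other CD3 cells, and gating inside lymphoid clusters put it at 87.9% in TBI other CD3 cells. Thinning to 1000 UMIs gave 77.1% in TBI CD4 cells, 71.1% in TBI other CD3 cells, 10.7% and 5.41% in Sham and TBI ILC2, and 20.3% and 19.7% in NK cells. By locus it gave alpha 31.4% and 31.4% in CD4 cells and 40% and 51.9% in CD8 cells, beta 65.7% in TBI CD4 cells and 88.5% in TBI CD8 cells, gamma 56.2% and 76.5% in gamma-delta cells, and delta 7.14% and 4.05% in ILC2 and 19.0% and 16.9% in NK cells. Requiring 2 V gene UMIs gave 84.2% in TBI CD4 cells, 65.1% and 71.7% in other CD3 cells, 7.58% and 2.30% in ILC2 and 17.6% and 18.4% in NK cells. By locus it gave alpha 41.0% in Sham CD4 cells and 53.7% in TBI CD8 cells, beta 73.7% in TBI CD4 cells, gamma 77.8% in TBI gamma-delta cells, and delta 3.03% and 2.30% in ILC2 and 17.6% and 15.8% in NK cells. Without the minimum of 10 UMIs, 100 members were measured, 20 of them at least 2-fold higher and 27 at least 2-fold lower. As a mean over cells of counts per 10000, 9 members were 2-fold lower. Thinning and the 2-UMI requirement lower detection by construction; for the other alternatives the cause was not tested. Leaving out predicted doublets or shared barcodes moved none of the shares by locus and class, but few such cells lay in the gates. Predicted doublets numbered 0 in Sham and 3 in TBI among gated T cells, 0 and 2 among NK cells and 2 and 1 among ILC2. Shared barcodes numbered 4 in each library among gated lymphocytes. These 2 settings could thus hardly move a share and do not test the results. No paired analysis was possible because each group has 1 library.

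The precision is limited by 1 pool per group and by classes of 18 to 145 T cells, in which a V gene found in a few cells cannot be compared between Sham and TBI at this depth. Intervals and floors cover counting error only and leave out differences between mice.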

Other observations

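T cells were also grouped by a pair of marker genes that the T cell gates do not use, a choice made after the data were seen. Of the gated T cells 19 held both Il1rl1 and Gata3, genes of type 2 lymphocytes, 5 in Sham and 14 in TBI. Both genes belong to the ILC2 gate, which excluded any cell with a CD3 UMI, so they do not tell these cells from ILC2. Of these 19 cells 5 had a beta V gene, 3 a gamma V gene, 5 a delta or dv alpha V gene, and 8 had none, and 16 of the 19 were other CD3 cells. The cells with no V gene UMI were 1 of 5 in Sham and 7 of 14 in TBI. Of all other CD3 cells, the class of 16 of these 19, 80.2% in Sham and 80.7% in TBI had one. Of all gated T cells 88.6% and 89.0% had one.

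Trav11, the alpha V gene of invariant natural killer T cells, was found in 4 gated T cells, and Trav1, that of mucosal-associated invariant T cells, in 5. The joining genes that complete those receptors had 0 UMIs, so the cells cannot be assigned to either type. Only 1 of the 246 stretches of 98 bases of Trav11 is in no other gene, so its count is uncertain. Its copy Trav11d, with 0 of 245 such stretches, was found in 1 cell, an other CD3 cell of TBI.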
